A study of Mus musculus with 12 samples.

Results

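The oligodendrocyte lineage was followed here through 29 genes, among the 55573 of the count table, that were listed by name for their known place in the lineage. They were 17 genes of the myelinating oligodendrocyte, 3 of the newly formed oligodendrocyte, 4 lineage transcription factors and 5 genes of the oligodendrocyte precursor. RNA was measured in whole right hippocampi of mice aged 4.5 months, taken from transgenic APPSwe/Ps1dE9 (APP/PS1) and wild-type (WT) animals labelled C57BL/6J. The transgenes encode familial Alzheimer mutants, APPSwe, which is a hybrid of the mouse and human protein, and dE9, which is human PS1, a presenilin, with an exon removed, and the prion promoter drives both. Each sex was represented by 4 APP/PS1 and 2 WT animals. No other allele or treatment was given in the labels. A library was made from each animal, and normalized levels are given as counts scaled to library size (CPM).

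Oligodendrocytes wrap axons in myelin and are renewed from precursors that divide throughout adult life. A precursor that differentiates first passes through a newly formed stage, marked by genes such as Enpp6 and Bcas1, before it makes myelin proteins and lipids in bulk. In the hippocampus myelinated fibres run mainly in the fimbria, the alveus and the deeper layers, so their share of a sample depends on how the tissue was taken. In whole tissue, fewer cells of a type and less RNA per cell cannot be told apart.

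Total counts per library ranged from 36714316 to 50643565. The libraries of APP/PS1 female 1, of WT female 2 and of APP/PS1 male 2 stood apart, with 3530, 3647 and 6362 CPM of Ttr, the transthyretin transcript of choroid plexus epithelium, against 2.69 to 18.3 CPM in the other libraries. All 8 choroid plexus markers examined were highest in these libraries within their groups. Of 8 microglial markers, 5 were called higher in APP/PS1 than in WT with the sexes averaged, beside 1.9% of all genes tested called in either direction. The summed level of the 8 was 491 to 776 CPM in APP/PS1 and 328 to 416 CPM in WT. The 4 Schwann cell markers examined, which would mark peripheral myelin, summed to between 0.684 and 1.20 CPM in every library and none passed the expression filter.

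Transcripts of all 4 sets of members were present in this tissue, the lineage factors being grouped as a stage for description only. In WT animals the highest levels per kilobase of exon belonged to myelinating genes. Mbp, the myelin basic protein that holds the cytoplasmic faces of the membrane together, led at 239 ± 27.2 CPM per kb (SD, n = 4, both sexes). Mobp, another structural protein of compact myelin, followed at 110 ± 14.9 CPM per kb. Cldn11, the claudin of myelin tight junctions, Mal, a raft-associated proteolipid, and Cnp, an enzyme of the non-compact myelin, lay at 80.3 ± 6.96, 78.8 ± 7.40 and 78.0 ± 11.2 CPM per kb and did not differ beyond their spread. Olig1, a lineage transcription factor, came next at 48.6 ± 4.26 CPM per kb, ahead of Bcas1, Mag and Mog, which at 33.3 ± 4.91, 31.8 ± 7.42 and 28.5 ± 6.08 CPM per kb overlapped in their spread. With Trf left aside (0.104 ± 0.0605 CPM per kb), at the bottom were the precursor proteoglycans Vcan and Cspg4, at 1.69 ± 0.209 and 1.495 ± 0.0618 CPM per kb, followed by Enpp6 at 1.12 ± 0.254 and the transcription factor Nkx2-2 at 1.04 ± 0.123 CPM per kb. The other precursor genes, Ptprz1, Lhfpl3 and Pdgfra, lay at 17.3 ± 1.59, 6.51 ± 0.555 and 5.97 ± 0.465 CPM per kb. Some myelinating genes were below Ptprz1, among them Fa2h, Opalin, Myrf and Aspa at 9.84 ± 1.05, 6.51 ± 2.57, 6.23 ± 0.476 and 2.48 ± 0.698 CPM per kb.

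Trf, the iron carrier transferrin, was the only member below the expression filter (3 samples or more with a log2 CPM no lower than 1), with 6 to 24 counts per library. Of its 3320 exon bases, 63.5% are shared on the same strand with the annotated gene Gm20425, which had 0 counts in every library, so its level is uncertain here. The other 28 members were among the 14008 genes tested. Of these, Lhfpl3 and Bcas1 share the largest parts of their exons with genes on the other strand, 17.6% and 12.6%, and the strand setting of the counting was not given in the sources used here.

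Whether the lineage differed between APP/PS1 and WT mice was examined within each sex, with the sexes averaged, and as the interaction of genotype and sex, with edgeR's quasi-likelihood test at a false discovery rate (FDR) under 0.1. None of the 28 members was called in any of these comparisons. Over all genes tested, the percentage called was 0.771% in females, 0.171% in males, 1.9% with the sexes averaged and 0% for the interaction. At an unadjusted p under 0.05 the number of members was 0 in females, 4 in males (all lower in APP/PS1, as 1.93% of all genes were), 4 with the sexes averaged and 1 for the interaction, beside 9.79%, 5.7%, 9.57% and 4.03% of all genes. DESeq2 with the same factors called 0, 0, 1 and 0 members in these comparisons. In the quasi-likelihood test without the 2 factors for unwanted variation, the 4 members in males, Mal, Cldn11, Mobp and Pdgfra, had unadjusted p of 0.162, 0.413, 0.161 and 0.1. With the sexes averaged Pdgfra then had 0.0302, and Mal, Myrf and Enpp6 had 0.088, 0.0938 and 0.137. The interaction p of Cldn11, the 1 member of that comparison, was then 0.608. Without WT male 1 the edgeR test called Mobp in males (FDR 0.0959) and Ugt8a and Enpp6 with the sexes averaged (smallest FDR 0.0381), the lone WT male being assumed to vary like the other groups, and the number of members at an unadjusted p under 0.05 was then 14 in males and 9 with the sexes averaged.

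The estimates were centred near zero. The median log2 fold change (APP/PS1 against WT) of the 28 members was -0.0043 in females and 0.0208 in males, beside 0.0124 and 0.0053 for all genes tested, and 14 of 28 members in females and 15 of 28 in males had estimates above zero. The 95% confidence interval of the log2 fold change lay wholly within 0.5 of zero for 23 of 28 members in females, 22 of 28 in males and 24 of 28 with the sexes averaged. The widest intervals with the sexes averaged belonged to Opalin, a membrane glycoprotein of mature oligodendrocytes, at -0.48 to 0.90, and to Nkx2-2, at -0.11 to 0.82, so differences of that size were not detectable for these 2 members.

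**Figure D1:**
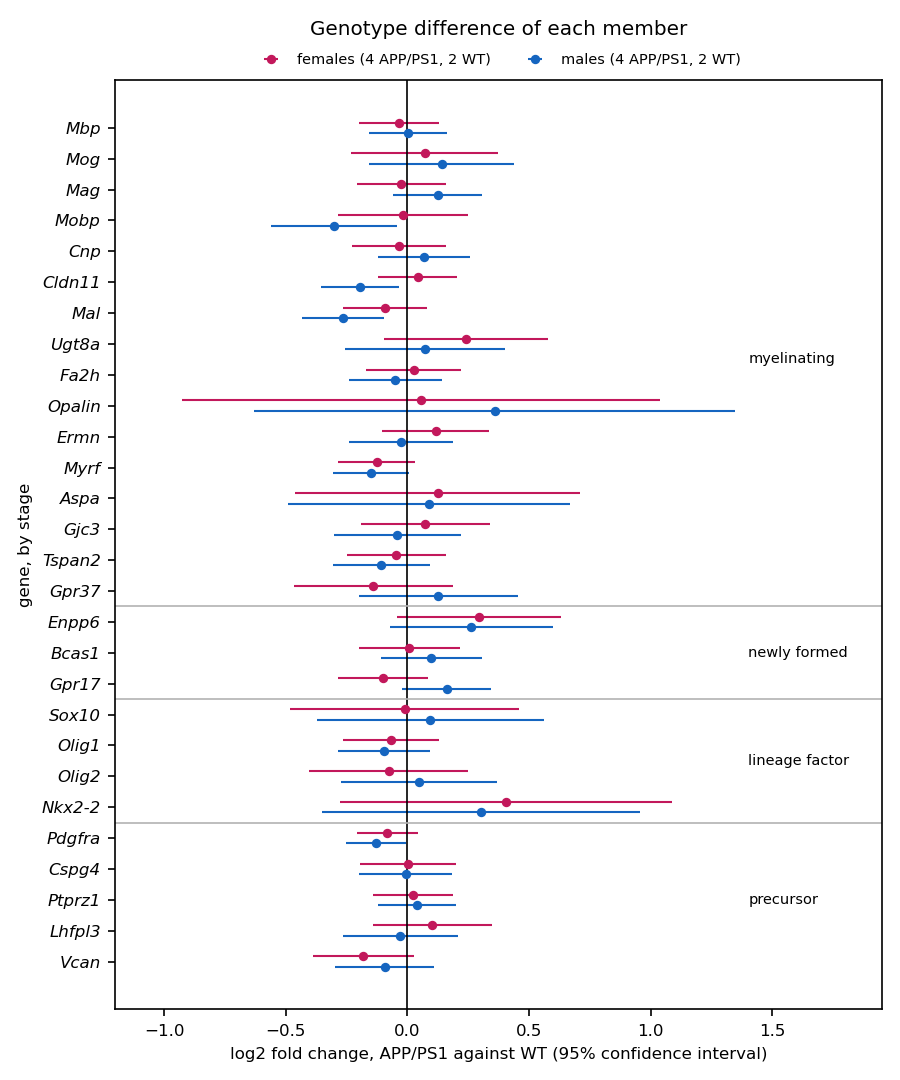
Log2 fold change of each of the 28 tested members, APP/PS1 against WT, in females and in males, with 95% confidence intervals from the fitted model; horizontal lines divide the stages. Nearly all intervals span zero, the exceptions being Mobp, Cldn11, Mal and Pdgfra in males, and the intervals of Opalin, Aspa, Sox10 and Nkx2-2 are the widest.

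Among the myelinating genes, Mbp was measured at 2308, 2233, 1846 and 1781 CPM in the APP/PS1 females and at 2067 and 2335 CPM in the WT females. In males it was 1810, 2398, 1665 and 1916 CPM in APP/PS1 and 1882 and 1822 CPM in WT. The genotypes overlapped in both sexes, and the highest values belonged to libraries rich in choroid plexus transcripts. The log2 fold change of Mbp was -0.04 (95% interval -0.20 to 0.13) in females and 0.00 (-0.16 to 0.16) in males.

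Mog, the glycoprotein on the outermost myelin lamella, was at 61.4, 61.6, 48.9 and 45.8 CPM in APP/PS1 females and 47.4 and 60.9 CPM in WT females. Males had 50.8, 62.2, 43.9 and 44.2 CPM in APP/PS1 and 50.5 and 35.7 CPM in WT. WT male 2 held the lowest value of all 12 animals, and the groups overlapped. Averaged over the sexes, the log2 fold change was 0.11 (-0.10 to 0.32).

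Mal had the smallest p of all members between the genotypes. It was at 237, 207, 166 and 192 CPM in APP/PS1 females and 199 and 246 CPM in WT females. The males had 184, 218, 170 and 176 CPM in APP/PS1 and 207 and 223 CPM in WT. In males 3 of 4 APP/PS1 animals lay below both WT animals and APP/PS1 male 2 lay between them, while in females the groups overlapped throughout. The log2 fold change was -0.09 in females and -0.27 in males (unadjusted p 0.00485, FDR 0.412), and -0.18 with the sexes averaged (95% interval -0.30 to -0.06, FDR 0.227), a difference that did not pass the threshold. Mal was the member called by DESeq2, with the sexes averaged, at an FDR of 0.067.

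Cldn11 was at 184, 157, 136 and 148 CPM in APP/PS1 females and 147 and 168 CPM in WT females, and at 125, 162, 112 and 126 CPM in APP/PS1 males and 137 and 148 CPM in WT males. As for Mal, 3 of the 4 APP/PS1 males lay below both WT males, here with APP/PS1 male 2 above them. The log2 fold change of Cldn11 was 0.04 in females and -0.20 in males, and Cldn11 was the one member with an unadjusted interaction p under 0.05 (0.0426, FDR 0.995). Mobp, with a log2 fold change of -0.30 (-0.56 to -0.04, FDR 0.758) in males and -0.02 in females, was the other myelin protein among the lower estimates in males.

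Myrf, the transcription factor that switches on myelin genes at terminal differentiation, was at 56.2, 53.7, 45.6 and 42.3 CPM in APP/PS1 females and 55.4 and 58.1 CPM in WT females. Among males it stood at 44.2, 53.6, 40.8 and 47.4 CPM in APP/PS1 and 49.5 and 50.5 CPM in WT. In each sex 3 of 4 APP/PS1 animals were below both WT animals, and 1 choroid plexus-rich APP/PS1 library was not. The log2 fold change with the sexes averaged was -0.14 (-0.25 to -0.03), with an unadjusted p of 0.0191 and an FDR of 0.366.

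The remaining myelinating genes gave estimates in both directions. With the sexes averaged, the 16 tested myelinating genes had log2 fold changes from -0.18 (Mal) to 0.21 (Opalin), 8 above zero and 8 below. Ugt8a, which makes galactosylceramide, was at 0.16 (-0.08 to 0.39) and Fa2h, which hydroxylates the fatty acids of these lipids, at -0.01 (-0.15 to 0.12). Aspa, which releases acetate from N-acetylaspartate in oligodendrocytes, stood at 0.11 (-0.30 to 0.52), and Gjc3, a connexin of oligodendrocytes, at 0.02 (-0.17 to 0.20). None of these differences passed the threshold.

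**Figure D2:**
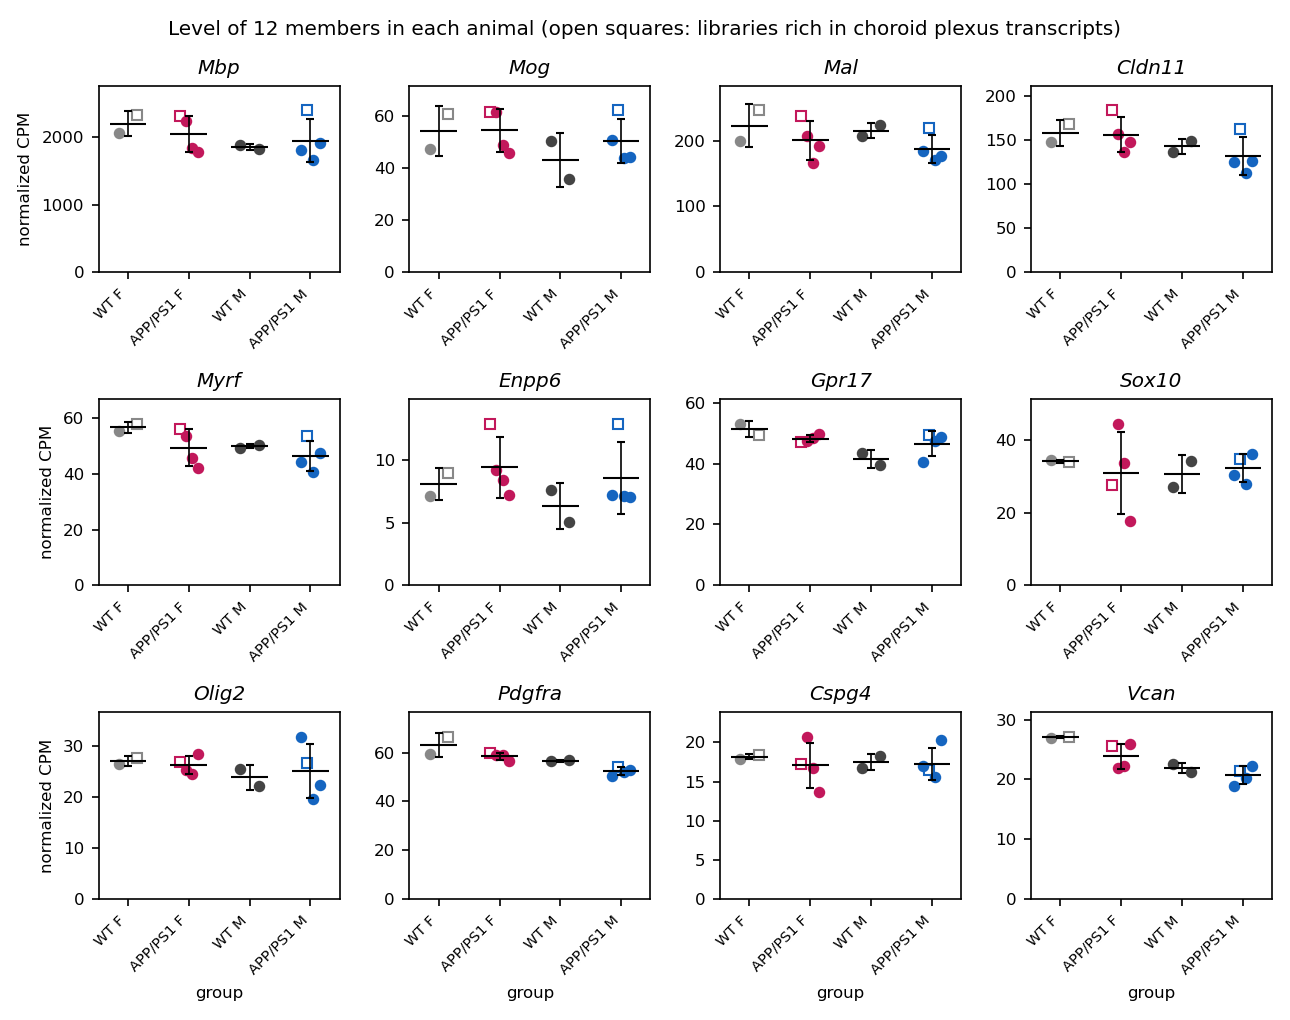
Normalized CPM of 12 members in each animal, by group (F, female; M, male); points are animals, open squares mark choroid plexus-rich libraries, and the bar and whiskers are the mean and SD of the group (n = 4 APP/PS1, n = 2 WT). The genotypes overlap in both sexes for every gene shown except Pdgfra in males and Vcan in females.

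The newly formed stage was described by 3 genes. Enpp6, a choline phosphodiesterase made briefly as a precursor becomes an oligodendrocyte, was at 12.9, 9.21, 8.36 and 7.22 CPM in APP/PS1 females and 7.14 and 8.97 CPM in WT females. Males had 7.18, 12.9, 7.15 and 7.03 CPM in APP/PS1 and 7.61 and 5.04 CPM in WT. Its highest values, both 12.9 CPM, were in APP/PS1 female 1 and APP/PS1 male 2, which are libraries rich in choroid plexus transcripts, and the other 3 APP/PS1 males lay between the 2 WT males. For Enpp6 the fitted log2 difference was 0.29 in females, 0.26 in males and 0.28 with the sexes averaged (0.04 to 0.52, unadjusted p 0.0244, FDR 0.397). Leaving out WT male 2 moved the averaged Enpp6 value to 0.16 and the male value to -0.02, and leaving out WT male 1 moved the averaged value to 0.47. With the 3 choroid plexus-rich libraries left out, the averaged value was 0.19 (unadjusted p 0.214), in a fit without the factors for unwanted variation in which the lone WT female was assumed to vary like the other groups.

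Gpr17, an orphan receptor of the committed precursor that is lost before myelination, was at 47.2, 47.4, 48.5 and 49.9 CPM in APP/PS1 females and 53.2 and 49.4 CPM in WT females. The corresponding values in males were 40.5, 49.5, 47.4 and 48.7 CPM in APP/PS1 and 43.6 and 39.5 CPM in WT. Values were lower in 3 of 4 APP/PS1 females than in either WT female, and higher in 3 of 4 APP/PS1 males than in either WT male. The log2 fold change was -0.10 in females and 0.16 in males, with an interaction of -0.26 (95% interval -0.52 to 0.00, FDR 0.995). Bcas1, which marks newly formed oligodendrocytes, gave 0.01 in females and 0.10 in males.

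Within groups 3 of the 4 lineage transcription factors varied more than the median gene, and Olig1 varied less (SD of log2 CPM 0.117, beside 0.1338 over all genes tested). Sox10, required for oligodendrocyte differentiation, was at 27.8, 44.6, 33.8 and 17.7 CPM in APP/PS1 females and 34.5 and 34.0 CPM in WT females. It was at 30.6, 34.8, 27.8 and 36.2 CPM in APP/PS1 males and 27.1 and 34.4 CPM in WT males. The lowest and the highest Sox10 value of the 12 animals were both in APP/PS1 females, numbers 4 and 2, and the log2 fold change with the sexes averaged was 0.04 (-0.29 to 0.37). Olig2, which specifies the lineage, was at 26.8, 25.2, 24.5 and 28.4 CPM in APP/PS1 females and 26.3 and 27.6 CPM in WT females. In males Olig2 was at 31.7, 26.5, 19.5 and 22.4 CPM in APP/PS1 and 25.5 and 22.1 CPM in WT, so that the APP/PS1 males lay on either side of the WT males. The Olig2 log2 fold change with the sexes averaged was -0.01 (-0.24 to 0.21). Olig1 and Nkx2-2 gave -0.08 (-0.22 to 0.05) and 0.35 (-0.11 to 0.82) and did not pass the threshold.

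Among the precursor genes, Pdgfra, the receptor through which platelet-derived growth factor keeps precursors dividing, was at 59.8, 58.9, 59.0 and 56.5 CPM in APP/PS1 females and 59.6 and 66.5 CPM in WT females. In males it was at 50.5, 54.3, 52.0 and 52.8 CPM in APP/PS1 and 56.4 and 56.9 CPM in WT. All 4 APP/PS1 males lay below both WT males, which 4.34% of all genes tested also did, and in females 3 of 4 lay below both WT females. For Pdgfra the log2 fold change was -0.08 (-0.21 to 0.04) in females, -0.13 (-0.25 to -0.01, FDR 0.835) in males and -0.11 (-0.19 to -0.02, FDR 0.378) with the sexes averaged. A two-sided exact permutation test of the difference in mean log2 CPM, with genotype labels exchanged within each sex, gave p = 0.00889 for Pdgfra, where the smallest p that this design allows is 0.00444. This test was run on 12 members, of which part were chosen for a small p in the same data, and the next smallest value was 0.0533 for Vcan. Pdgfra had a narrow spread and a small difference that did not pass the test across all genes.

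Vcan, a large chondroitin sulphate proteoglycan, was at 25.6, 21.9, 22.3 and 25.9 CPM in APP/PS1 females and 27.0 and 27.2 CPM in WT females. In males it was at 18.9, 21.5, 20.2 and 22.3 CPM in APP/PS1 and 22.5 and 21.3 CPM in WT. All 4 APP/PS1 females lay below both WT females, as did 6.61% of all genes tested, while the males overlapped. For Vcan the log2 fold change was -0.18 in females (FDR 0.592) and -0.14 (-0.28 to 0.01) with the sexes averaged. Cspg4, the NG2 proteoglycan of precursors and pericytes, was at 17.3, 20.7, 16.7 and 13.7 CPM in APP/PS1 females and 17.9 and 18.4 CPM in WT females, and at 16.96, 16.4, 15.6 and 20.3 CPM in APP/PS1 males and 16.8 and 18.3 CPM in WT males. Its groups overlapped, with a log2 fold change of 0.00 (-0.14 to 0.13). The phosphatase Ptprz1, which astrocytes also express, and Lhfpl3 gave 0.03 and 0.04. Pericytes and leptomeningeal fibroblasts can also express genes of this stage, and 0 of 6 markers of each were called in any of these comparisons. Of all genes, 0.771% were called in females and 0.171% in males. All 6 fibroblast markers had estimates below zero in females (median log2 fold change -0.28), and 2 of 6 did in males (median 0.16). The pericyte medians were 0.13 and -0.03. The part of these cells in the precursor values was not tested.

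Precursor and myelinating genes were then compared with each other. The median log2 fold change of the myelinating genes minus that of the precursor genes was 0.0019 in females, 0.0176 in males and 0.0073 with the sexes averaged. Leaving out single animals gave -0.0686 to 0.0281 in females, -0.0521 to 0.1505 in males and -0.0317 to 0.1249 with the sexes averaged. As mean log2 CPM per animal, the myelinating genes stood 1.44, 1.32, 1.0998 and 1.11 above the precursor genes in APP/PS1 females and 1.19 and 1.28 in WT females. In males the same difference in mean log2 CPM was 1.33, 1.49, 1.07 and 1.08 in APP/PS1 and 1.25 and 1.03 in WT. The mean APP/PS1 minus WT shift in this quantity, 0.0077 in females and 0.1059 in males, was smaller than its SD within groups, 0.173.

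**Figure D3:**
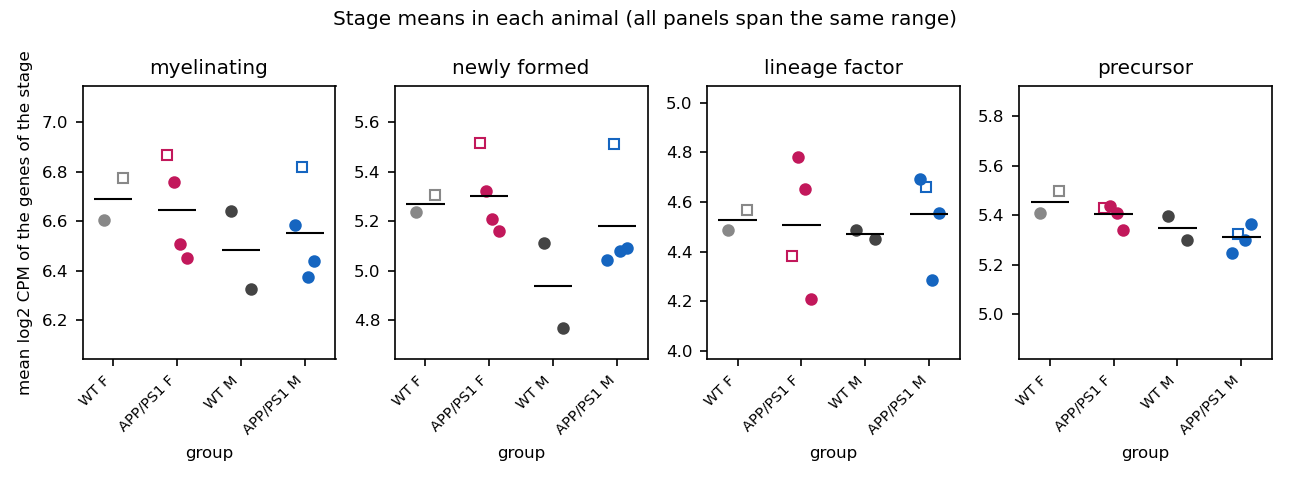
Mean log2 CPM of the tested genes of each stage in each animal, by group (F, female; M, male); bars are group means, open squares mark choroid plexus-rich libraries, and every panel spans the same range of the log2 scale. The myelinating and newly formed means spread widely within groups, with the open squares at or near the top, and the precursor means lie close together.

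The stages differed in how much the animals of a group varied. The SD of log2 CPM within groups had a median of 0.1998 over the 16 myelinating genes and 0.102 over the 5 precursor genes, beside 0.134 over all genes tested. All 16 myelinating genes were above the median of all genes and 1 of 5 precursor genes was. Pdgfra had the lowest within-group SD of the members (0.0526) and Opalin the highest (0.516). The median for the 4 lineage factors was 0.286 and for the 3 newly formed genes 0.167. Neuronal markers, by comparison, had a median of 0.0964.

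Part of the variation of the myelinating genes ran with the 3 libraries rich in choroid plexus transcripts. The library of that kind was the highest of its group for 14 of 16 myelinating genes in APP/PS1 females, 16 of 16 in APP/PS1 males and 15 of 16 in WT females. For 13 of the 16 (81.2%) all 3 libraries were highest at once, which held for 11% of all genes tested, 1 of 5 precursor genes, 0 of 4 lineage factors and 0 of 8 neuronal markers. It also held for 3 of 6 leptomeningeal fibroblast markers (50%), 3 of 7 plaque-associated genes (42.9%) and 13 of 33 further genes of the mature oligodendrocyte (39.4%). In these libraries the mean log2 CPM of the myelinating genes was 6.87, 6.82 and 6.77, against 6.33 to 6.76 in the other 9. APP/PS1 female 2, with 7.43 CPM of Ttr, had the next highest mean, 6.76. Among APP/PS1 animals, female 4 and male 3 were each the lowest of their group for 11 of 16 myelinating genes, and in the WT groups of 2 animals female 1 was the lower for 15 of 16 and male 2 for 11 of 16. The first of the 2 estimated factors of unwanted variation in the model separated the same libraries (0.447 to 0.549 against -0.278 to -0.0722), and the median standard error of the myelinating genes with the sexes averaged was 0.0676 with the factors and 0.105 without. What sets the myelin level of a sample was not tested.

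**Figure D4:**
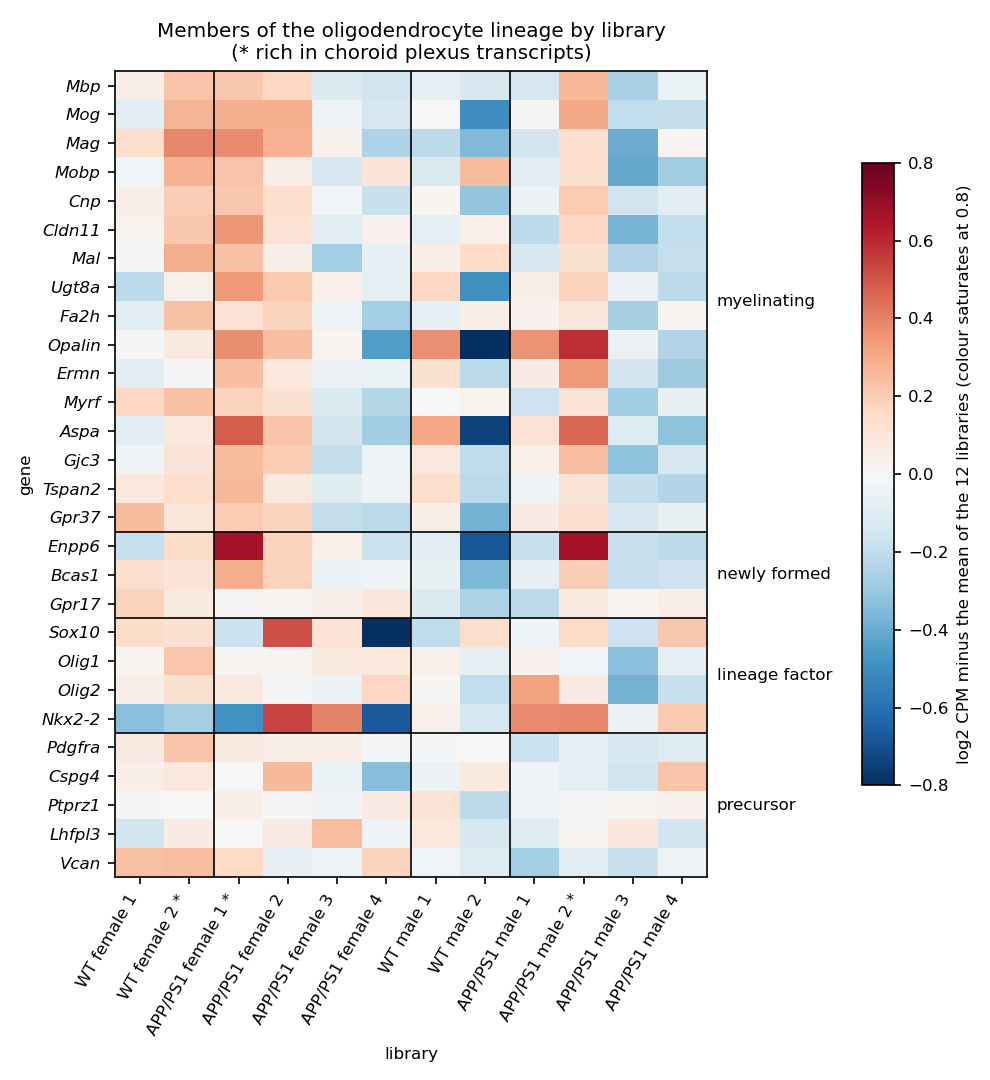
Log2 CPM of the 28 tested members in each library, as the difference from the mean of the 12 libraries (red, above; blue, below), ordered by stage and group; an asterisk marks libraries rich in choroid plexus transcripts. The marked libraries are red through most of the myelinating block and pale in the precursor block, and WT male 2 is blue for Opalin, Aspa, Mog, Ugt8a and Enpp6 while it is red for Mobp and Mal.

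When these 3 libraries were left out and the model was fitted without factors, 0 members were called in any comparison. With the sexes averaged the smallest FDR of a member was then 0.649, the median log2 fold change of the myelinating genes was -0.0150 and the log2 fold changes of Mal, Myrf and Pdgfra were -0.18, -0.20 and -0.08. WT females were a single animal in this fit, assumed to vary like the other groups.

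Upstream sequence is shown for 4 of the genes described above, Mog, Mal, Enpp6 and Pdgfra, which stand for the mature myelin surface, the member with the smallest p with the sexes averaged, the newly formed stage and the precursor. The 250 bases before the start of each gene were taken from the RefSeq table for GRCm38.p6 and are written 5′ to 3′ on the strand of the gene, at chr17:37023399-37023648 (minus strand) for Mog, chr2:127656696-127656945 (minus strand) for Mal, chr8:46986637-46986886 (plus strand) for Enpp6 and chr5:75152001-75152250 (plus strand) for Pdgfra. Capitals mark matches to 2 kinds of letters searched on both strands, CTGGCAC or CTGGTAC, the core recognised by MYRF, and AACAAT or ACAAAG, a core of SOX factors.
Mog: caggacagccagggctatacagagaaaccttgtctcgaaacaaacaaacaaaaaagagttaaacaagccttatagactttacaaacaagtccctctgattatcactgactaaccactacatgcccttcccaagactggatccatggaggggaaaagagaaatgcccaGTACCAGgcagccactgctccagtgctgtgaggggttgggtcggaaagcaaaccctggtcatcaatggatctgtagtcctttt
Mal: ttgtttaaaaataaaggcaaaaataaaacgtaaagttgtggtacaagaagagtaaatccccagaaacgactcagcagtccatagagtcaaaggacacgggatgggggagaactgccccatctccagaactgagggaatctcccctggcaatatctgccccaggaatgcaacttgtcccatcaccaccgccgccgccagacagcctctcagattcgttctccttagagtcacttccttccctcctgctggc
Enpp6: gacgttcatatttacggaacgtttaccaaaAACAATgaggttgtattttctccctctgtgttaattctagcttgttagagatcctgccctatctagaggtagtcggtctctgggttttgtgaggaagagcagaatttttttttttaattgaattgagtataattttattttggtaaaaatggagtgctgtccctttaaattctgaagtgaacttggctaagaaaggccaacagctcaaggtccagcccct
Pdgfra: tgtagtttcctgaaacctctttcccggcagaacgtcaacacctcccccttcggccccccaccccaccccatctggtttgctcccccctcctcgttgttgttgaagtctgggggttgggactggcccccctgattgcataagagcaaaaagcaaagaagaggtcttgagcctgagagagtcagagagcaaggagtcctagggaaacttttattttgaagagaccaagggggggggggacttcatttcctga
The capitals in Mog are CTGGTAC on the opposite strand, 83 bases before the start, and those in Enpp6 are AACAAT, 220 bases before the start. The windows of Mal and Pdgfra hold no match.

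In windows of 300 bases (250 before the start and 50 after), the MYRF letters were found in 4 of the 21 members with an entry (19%), beside 7.1% of 27025 promoters of all genes. The 4 were Mog, Mag, Cnp and Opalin, all of them myelinating genes, and 0 of 5 precursor genes had a match. The SOX letters were found in 7 of 21 members (33.3%) and in 27.2% of all promoters. The Mag, Cnp and Opalin windows hold both kinds of letters. These counts describe the letters in the windows and say nothing of binding.

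Females and males were compared within each genotype. In WT animals 0 members were called (0.0571% of all genes tested were), and 4 of 28, all higher in females, had an unadjusted p under 0.05. Of all genes 5.19% had such a p and 2.86% were also higher in females. They were Mag, Gpr17, Vcan and Bcas1, with log2 fold changes (females against males) of 0.34, 0.32, 0.30 and 0.25. The WT comparison held 2 animals of each sex. WT female 2 was choroid plexus-rich and neither WT male was, and the part of this imbalance in these values was not tested. In APP/PS1 animals 0 members were called (0.0857% of all genes), and 5 of 28, again all higher in females, had an unadjusted p under 0.05, beside 5.35% of all genes, 2.87% being higher in females. These were Cldn11, Mag, Pdgfra, Vcan and Mobp, and 23 of 28 members and 7374 of 14008 genes had estimates above zero there, against 18 of 28 and 6831 of 14008 in WT. Cldn11 stood first, at 0.26 (95% interval 0.13 to 0.39, unadjusted p 0.000894, FDR 0.654). In the quasi-likelihood test without the 2 factors for unwanted variation, Cldn11, Mag and Mobp had unadjusted p of 0.0504, 0.147 and 0.113. Pdgfra and Vcan then had 0.00931 and 0.0214. DESeq2 and the likelihood ratio test of edgeR both called Cldn11 in this comparison, at FDRs of 0.0905 and 0.0938, and none of the members in WT. The females of APP/PS1 lay at 136 to 184 CPM of Cldn11 and the males at 112 to 162 CPM, so the sexes overlapped. With the factors in the model, only Mag and Vcan had an unadjusted p under 0.05 between the sexes in both genotypes. In the quasi-likelihood test without them, Vcan kept such a p in both (0.0166 in WT) and Mag in WT only (0.0181).

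Lists of further genes of the lineage, also chosen with results of these data known, were set beside the members. Of 33 tested genes of the mature oligodendrocyte outside the 29, 1 was called higher in APP/PS1 females and 1 with the sexes averaged, Cd9 in both cases, and 0 in males. Of all genes tested, 0.771% were called in females, 1.9% with the sexes averaged and 0.171% in males, so 1 call among 33 genes is little by itself. Cd9, a tetraspanin that is also made by microglia and other cells, was at 77.3, 63.4, 76.7 and 57.5 CPM in APP/PS1 females and 42.1 and 55.1 CPM in WT females. It was at 60.2, 93.0, 51.0 and 50.2 CPM in APP/PS1 males and 44.6 and 38.7 CPM in WT males. Its log2 fold change with the sexes averaged was 0.51 (0.32 to 0.69, FDR 0.0132). The call was lost, with log2 fold changes of 0.43 or more, when APP/PS1 male 2, WT female 1 or WT female 2 was left out, and in 4 of 13 other settings. These were the fit without the expression filter (FDR 0.120), the fit of all 12 animals without the factors for unwanted variation (log2 fold change 0.56, FDR 0.384), the replicate block without the factors (FDR 0.179), and the fit without both the factors and the 3 choroid plexus-rich libraries (0.51, FDR 0.102). In males the likelihood ratio test of edgeR and DESeq2 called Cd9, at FDRs of 0.0453 and 0.0177. Evi2a, second in that list by p, was at 0.26 (FDR 0.564). Of 17 further precursor genes tested 0 were called, and the 2 with the smallest p, Susd5 and Matn4, were at -0.27 and -0.16 with FDRs of 0.530 and 0.554. The median log2 fold change with the sexes averaged was 0.0328 for the further mature genes and -0.0684 for the further precursor genes, beside 0.0096 for all genes tested.

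Another list held 8 genes known to be raised in oligodendrocytes close to amyloid plaques, which microglia or astrocytes also express, and 7 of them were tested. With the sexes averaged 5 of the 7 were called, all higher in APP/PS1, beside 1.9% of all genes tested. They were the complement gene C4b, with a log2 fold change of 1.32 (FDR 0.0132), the MHC class I genes H2-D1 (0.69, FDR 0.0445) and H2-K1 (0.50, FDR 0.0783), their light chain B2m (0.75, FDR 0.00212) and the tetraspanin Cd63 (0.35, FDR 0.0440). The rest of the list, Serpina3n, Il33 and Klk6, was not called or was below the expression filter. With the sexes averaged, 1 of the 7 tested genes had an estimate below zero (-0.05). In females 2 of 7 were called, C4b and B2m, and in males 0, beside 0.771% and 0.171% of all genes. The likelihood ratio test of edgeR also called H2-D1 and Cd63 in females, and B2m (FDR 0.000111) and C4b (FDR 0.00623) in males. DESeq2 called these and in addition H2-K1 in females (FDR 0.052) and H2-D1 in males (FDR 0.0371). B2m was at 131, 92.5, 122 and 111 CPM in APP/PS1 females and 61.0 and 68.2 CPM in WT females. In males B2m was at 116, 125, 83.0 and 88.5 CPM in APP/PS1 and 63.2 and 58.2 CPM in WT. The median of the 7 was 0.501, and that of the 8 microglial markers, whose summed level is given above, was 0.718. Of 8 astrocyte markers 1 was called with the sexes averaged, Gfap, and their summed level was 2662 to 3346 CPM in APP/PS1 and 2542 to 2704 CPM in WT. Which cells these transcripts came from cannot be told apart in whole tissue. B2m kept its call with the sexes averaged when any single animal was left out and in all 13 other settings. In those settings C4b lost its call in 3, Cd63 and H2-D1 in 4 each and H2-K1 in 6. All 4 lost it in the fit that left out both the factors and the choroid plexus-rich libraries, and without the factors in all 12 animals Cd63 (FDR 0.749) and H2-K1 (FDR 0.137) also lost it, while C4b and H2-D1 kept it. C4b also lost this call without WT female 1, WT female 2 or WT male 2, and Cd63 without these or APP/PS1 female 1 or APP/PS1 male 2. H2-D1 lost it without APP/PS1 male 2, WT male 1 or either WT female, and H2-K1 without these or APP/PS1 female 1. Over all alternatives the log2 fold changes of C4b, H2-D1, H2-K1 and Cd63 ran from 1.21 to 1.42, 0.61 to 0.82, 0.44 to 0.64 and 0.24 to 0.60. The calls in females were lost in 6 (C4b), 3 (B2m) and 8 (Cd9) of the 12 fits without 1 animal, those without either WT female among them.

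**Figure D5:**
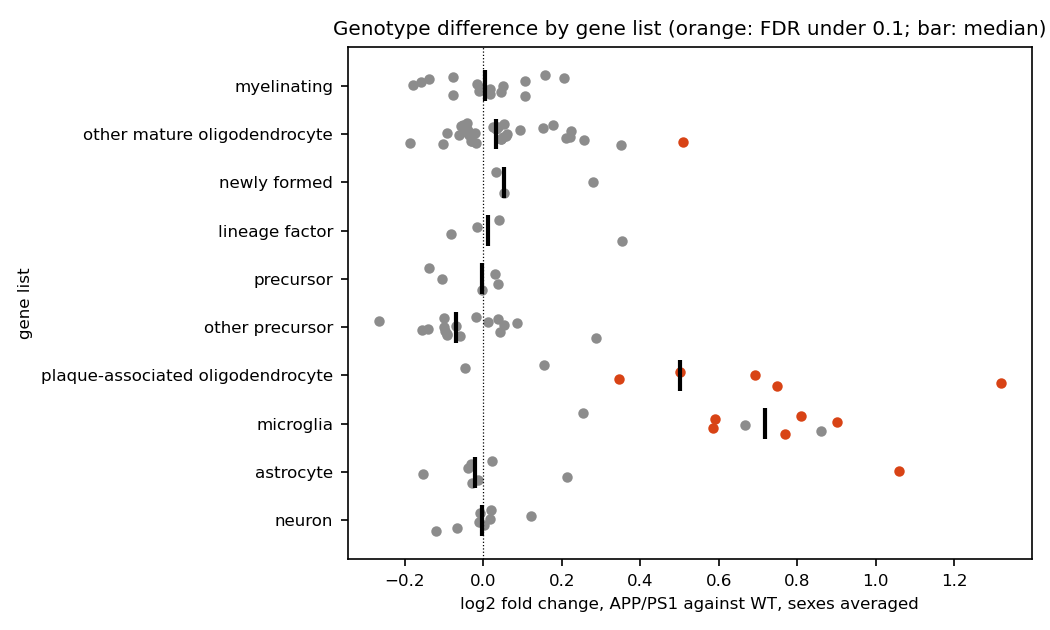
Log2 fold change with the sexes averaged for the tested genes of each list; points are genes, orange where the FDR is under 0.1, and black bars are medians. The 4 member lists lie around zero with no orange point, the further mature genes hold 1 (Cd9), and 5 of 7 plaque-associated genes and 5 of 8 microglial markers are orange.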

How the data were processed

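Poly-A RNA of 12 right hippocampi was sequenced. Per the paper's methods, the authors used Trimmomatic for trimming, STAR for alignment to GRCm38 and HTSeq for counts per gene. The deposited values are these raw counts, without normalization, and versions and strand options are not given in the sources used here. Identifiers of 55480 of the 55573 genes matched GENCODE M21, as did all 29 members.

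The 14008 genes whose log2 CPM reached 1 in 3 samples or more were tested. The model of all 12 libraries held 4 groups, upper-quartile scaling and 2 RUV factors, estimated from all genes but the 5000 that differed most across the groups. Contrasts were tested two-sided by quasi-likelihood in edgeR (4.0.16, under R 4.3.3), with Benjamini-Hochberg adjustment over all genes tested, and calls at an FDR under 0.1. The script was tested on simulated data. DESeq2 (1.42.0) and other settings were alternatives.

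Members named in detail were the 3 with the smallest p with the sexes averaged, the 2 with the smallest p in females, in males and for the interaction, and fixed examples of each stage (Mbp, Mog, Myrf, Enpp6, Gpr17, Sox10, Olig2, Pdgfra and Cspg4), and of the other lists the called genes and the 2 with the smallest p. The members and lists were chosen with earlier results of these data known. Depth was 36714316 to 50643565 counts per library. Members with few counts, such as Nkx2-2 (76 to 193 per library), also carry counting noise, which was not separated from the spread between animals. Pairs of libraries within groups differed by more than sampling noise.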

Additional observations from a re-analysis of the deposited data

Results flagged for a closer look

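In groups of 4 animals, the named genes and the stage means were examined for an animal standing apart from the other 3. Of 52 such groups 2 held one, and about 1 in 20 groups would by chance. Enpp6 in APP/PS1 male 2 was at 12.9 CPM, against 7.03 to 7.18 CPM in the other APP/PS1 males. The mean log2 CPM of the newly formed genes was 5.51 in the same library and 5.04 to 5.09 in the others. This library is rich in choroid plexus transcripts, whose part in the value was not tested. Without this animal the log2 fold change of Enpp6 in males was 0.13 in place of 0.26, and without WT male 2, the lower of the 2 WT males, it was -0.02.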

How the results depend on the processing

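Over 27 alternative settings, 12 of which leave out 1 animal, 2577 of 2750 values were labelled the same. Of the rest, 68 moved further, 75 lost a call, 30 gained one and 0 reversed. Reversal was counted only for genes called in the main or the alternative fit. Other estimates were labelled the same if they moved by less than the spread between replicates, whatever their sign. Counts of genes called were judged by their ratio. The Enpp6 estimate in males, for example, changed sign without WT male 2. The number of members called with the sexes averaged was 1 (Mal) with DESeq2, 1 (Mal, FDR 0.032) without the expression filter, and 0 to 2 when single animals were left out (Ugt8a and Enpp6 without WT male 1). In males it was 0 to 1 when single animals were left out (Mobp, FDR 0.0959, without WT male 1), and for the sexes within APP/PS1 it was 1 (Cldn11) with the likelihood ratio test and 1 with DESeq2. When a WT animal is left out, the other one of its sex is assumed to vary like the remaining groups. The number of all genes called ran from 31 to 296 in females (108 in the main model), 9 to 146 in males (24), 66 to 399 with the sexes averaged (266), 0 to 12 for the interaction (0), 3 to 42 for the sexes in WT (8) and 7 to 30 for the sexes in APP/PS1 (12), and leaving out single animals gave 33 to 156 in females, 4 to 83 in males and 94 to 361 with the sexes averaged. The settings that replace the factors by a term for the choroid plexus-rich libraries were chosen after seeing the data and called 0 members with the sexes averaged.

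Deviations of same-numbered animals from their group means correlated between -0.673 and 0.732. In a WT group of 2 animals these deviations mirror each other, so the values cannot tell whether the replicate numbers pair the animals. With the replicate number as a block, the stage difference in males was 0.199 with RUV factors and 0.243 without, in place of 0.0176, and the block called 0 members. With 2 WT animals per sex, differences smaller than the printed intervals were not detectable, and some larger ones were not called either. The intervals are not adjusted for the number of genes tested, while the calls are. In males the intervals of Mal (-0.43 to -0.10, FDR 0.412) and Mobp (-0.56 to -0.04, FDR 0.758) lay wholly below 0 without a call.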
